A study of Mus musculus with 8 samples.

Results

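Regulators of the undifferentiated spermatogonia of the mouse testis, Id4, Gfra1, Ret, Etv5, Nanos2, Nanos3, Lin28, Sall4, Bcl6b and Egr4, were taken by symbol from the table of normalized log2 signals. All 10 were found among its 18097 genes. The arrays, of single-colour Illumina BeadChips, compared 4 XEOSry with 4 XEZ2OSry males, 1 array per animal, with total RNA of the whole testis at 17.5 dpp (days post partum). XEOSry males have an XO karyotype on the MF1 background and carry transgenes for Sry and Eif2s3y, so that they have no Zfy gene. XEZ2OSry males share the karyotype, the background and both of those transgenes, and carry an X-linked Zfy2 transgene as well. Every animal thus lacks the rest of the Y chromosome, and neither genotype is a wild type. The study's methods count fewer animals than the labels do, and all 8 labelled arrays were used.

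Undifferentiated spermatogonia are the germ cells on the basement membrane of the seminiferous tubule that include the stem cells of spermatogenesis. Sertoli and peritubular cells secrete GDNF, which binds the coreceptor GFRA1 and signals through the receptor tyrosine kinase RET, and in cultured germline stem cells this signal raises transcription of Etv5 and Bcl6b. ID4 and EGR4 are nuclear factors, the first a marker of the stem cells and the second needed for male fertility in the mouse. NANOS2, NANOS3, LIN28 and SALL4 act at the level of RNA or chromatin, and keep the cells from entering differentiation or allow them to proceed to it. As these cells are a small part of the testis, their RNA is diluted by that of spermatocytes and somatic cells in a whole-testis sample. In such bulk RNA fewer cells of a type and less RNA per cell cannot be told apart.

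A detection p-value, which sets each signal against negative control beads, comes with every value, and a gene is called detected on an array where it is under 0.01. The detection p did not always follow the signal. Of 5790 genes with a mean signal at or above that of Sall4, 312 were detected on fewer than 4 arrays. Between 8132 and 8434 genes were detected on the XEOSry arrays and between 8063 and 8282 on the XEZ2OSry arrays, and 8412 of the 18097 genes (46.5%) on none. The transgene that separates the genotypes could not check the labels, since Zfy2 was not detected on any array and read 6.05 to 6.20 in XEOSry and 6.15 to 6.19 in XEZ2OSry (log2 signal). Zfy1 was likewise not detected, at 6.13 to 6.28 in XEOSry and 6.50 to 6.77 in XEZ2OSry. Eif2s3y, which both genotypes carry, was detected on all 8 arrays. Hprt1, an X-linked gene of purine salvage, separated the arrays by their labels, at 9.82 to 10.87 in XEOSry and 6.90 to 7.07 in XEZ2OSry. Of the markers of germ cells at any stage, Dazl and Tex101 were bright on both sides, whereas the probes of Ddx4 and Mael, which germ cells also express, were not detected on any array.

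Promoter windows of 250 bases before and 50 bases after the start site were taken from RefSeq (GRCm38.p6), where 7 of the 10 genes have one. Both members whose genotypes did not overlap, Id4 and Nanos2, are shown with Egr4, the member that varied most between animals. Each is written 5′ to 3′ on the strand of its gene, with matches to 3 motifs in capitals. The motifs are the E-box CANNTG bound by basic helix-loop-helix factors, the GC box GGGCGG bound by SP factors and TGACGT of the CREB site, each searched on both strands with no letter shared between them in these windows.
Id4, chr13:48260866-48261165, plus strand: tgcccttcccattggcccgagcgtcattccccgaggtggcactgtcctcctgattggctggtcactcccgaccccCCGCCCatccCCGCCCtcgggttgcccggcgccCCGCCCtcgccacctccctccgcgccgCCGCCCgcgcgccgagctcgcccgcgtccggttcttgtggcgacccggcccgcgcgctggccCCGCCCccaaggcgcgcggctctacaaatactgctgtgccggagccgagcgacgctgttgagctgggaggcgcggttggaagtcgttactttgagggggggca
Nanos2, chr7:18987274-18987573, plus strand: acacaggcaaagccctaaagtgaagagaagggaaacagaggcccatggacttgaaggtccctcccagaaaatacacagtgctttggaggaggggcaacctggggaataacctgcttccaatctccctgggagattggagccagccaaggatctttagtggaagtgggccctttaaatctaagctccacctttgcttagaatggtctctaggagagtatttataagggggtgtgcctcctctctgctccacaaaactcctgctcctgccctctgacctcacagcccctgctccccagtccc
Egr4, chr6:85513540-85513839, minus strand: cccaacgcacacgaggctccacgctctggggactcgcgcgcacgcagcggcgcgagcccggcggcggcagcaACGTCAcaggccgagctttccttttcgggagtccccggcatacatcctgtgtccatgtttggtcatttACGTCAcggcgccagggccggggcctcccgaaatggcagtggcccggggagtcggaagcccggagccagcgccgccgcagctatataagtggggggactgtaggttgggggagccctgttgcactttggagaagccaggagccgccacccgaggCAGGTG
The Id4 window held 5 matches to the GC box, all read as the complement CCGCCC, and no match to the other motifs. The Egr4 window held 2 matches to TGACGT, both read as ACGTCA, and 1 E-box in its last bases. No letters of the 3 motifs were found in the Nanos2 window. Of 32851 RefSeq windows of the same length, 72.3% hold an E-box, 35.7% a GC box and 7.51% a TGACGT. G and C make up 73.3% of the Id4 window, 53.0% of the Nanos2 window and 67.7% of the Egr4 window, against a median of 52.7% over all windows. Such matches describe the letters and do not show binding.

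No member passed the test between the genotypes. Id4, Etv5, Egr4 and Lin28 were detected on at least 4 of the 8 arrays and entered the limma fit with 8324 genes in all (46.0% of the table), and the other 6 members did not. Of the 4 tested, 0 passed an adjusted p of 0.05 in either direction, where 0.024% of the genes tested passed as higher and 0.036% as lower in XEOSry (2 and 3 genes). At an unadjusted p under 0.05, 1 of the 4 was lower (Id4), where 12% of the genes tested were lower, and 0 of the 4 were higher, where 12.9% were. With all 10 members counted, Id4 was lower in XEOSry without overlap, where 3.16% of all 18097 genes were, and Nanos2 was higher without overlap, where 4.19% were. Without the filter on detection, 0 of the 10 members passed the adjusted threshold, where 0.0111% of all genes passed as higher and 0.0166% as lower, and at an unadjusted p Id4 was lower, where 7.45% were, and Nanos2 higher, where 9.19% were. Of the 10 differences 7 were positive and 3 negative, with a median of 0.09, beside 56.5% positive, 43.5% negative and a median of 0.02 over all genes. A positive difference means a higher log2 signal in XEOSry throughout, and over the genes tested 62% of the differences were positive and 38% negative, with a median of 0.07. Among the 4 tested members, Id4 alone did not overlap, where 4.58% of the genes tested were lower and 6.34% higher without overlap. A single gene accounts for each call, so that these shares are no result about the members as a group.

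**Figure D1:**
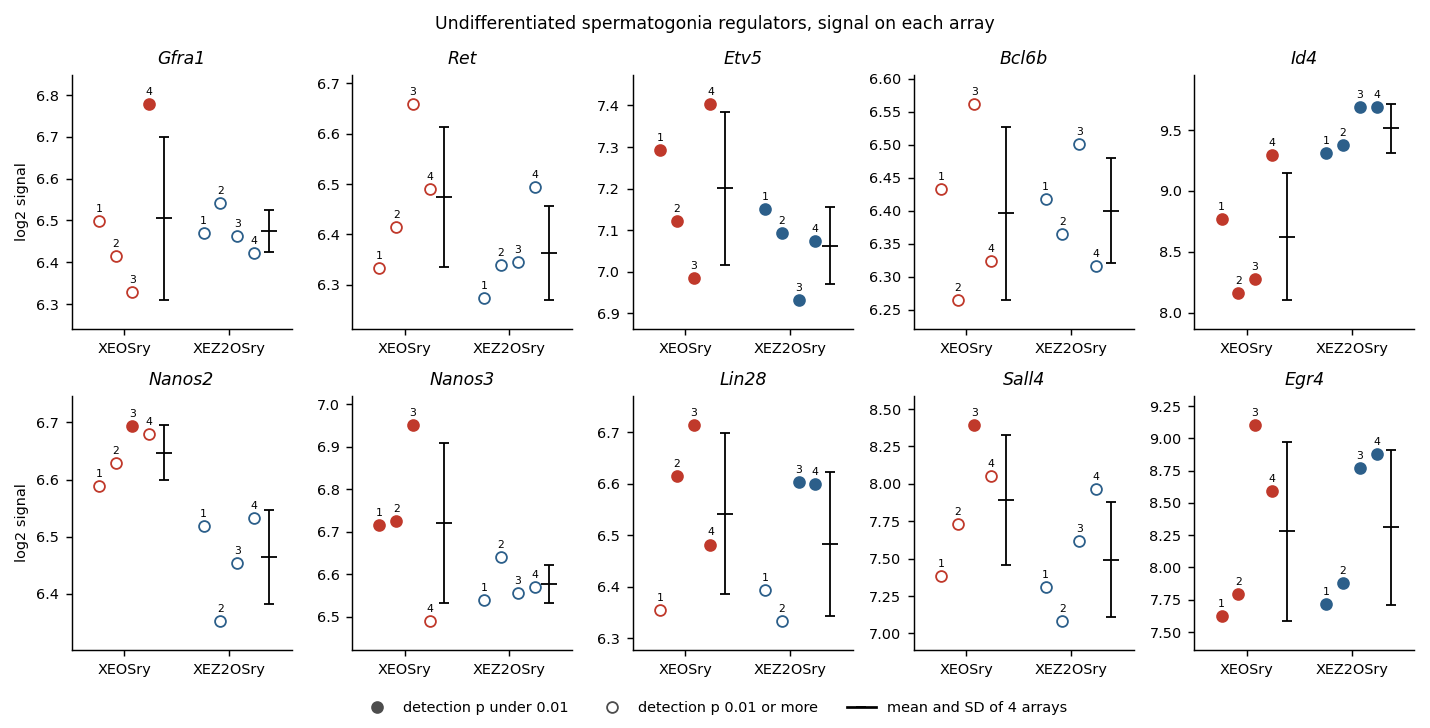
Log2 signal of the 10 regulators on each of the 8 arrays, XEOSry left of XEZ2OSry, 1 point per animal, with filled points where the gene was detected (detection p under 0.01) and open points where it was not, and bars for the mean and SD of 4 arrays; each panel has its own log2 scale. The XEOSry points of Id4 lie below those of XEZ2OSry, Nanos2 shows the reverse at signals near background, and Egr4 and Sall4 spread widely within each genotype.

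GDNF reception was at or near background in both genotypes. Gfra1, the coreceptor, read 6.50, 6.41, 6.33 and 6.78 on the XEOSry arrays and 6.47, 6.54, 6.46 and 6.42 on the XEZ2OSry arrays. It was detected on a single array, XEOSry replicate 4, with a detection p of 0.00501 against control beads. The genotypes overlapped, with means of 6.51 ± 0.195 in XEOSry and 6.47 ± 0.0503 in XEZ2OSry (SD, n = 4 each; difference 0.03, two-sided exact permutation p = 0.857). Without XEOSry replicate 4 the difference was -0.06. With 7 of the 8 signals not above background, no fold is given. Ret, the signalling receptor, read 6.33, 6.42, 6.66 and 6.49 in XEOSry and 6.27, 6.34, 6.35 and 6.49 in XEZ2OSry. It was not detected on any array (detection p 0.0809 to 0.462), so that its difference of 0.11 (exact permutation p = 0.314) compares signals that are not above background, and no fold is given.

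The other GDNF family genes mostly failed detection too. Of 8 listed ligands and coreceptors all were found, and 7 were not detected on any array. Among these, Gdnf itself read 7.06 ± 0.142 in XEOSry and 6.87 ± 0.154 in XEZ2OSry, means above those of Gfra1 and Ret (difference 0.18). Only Gfra4, the coreceptor of persephin, a relative of GDNF, was detected. It read 6.30, 6.21, 6.05 and 6.44 in XEOSry, where it was not detected, and 6.89, 7.42, 6.96 and 6.73 in XEZ2OSry, where it was detected on all 4 arrays. The genotypes did not overlap, where 4.58% of the genes tested were lower without overlap. The difference of -0.75 (SE 0.155, adjusted p = 0.107 from limma) fell short of the threshold. A floor was set on each XEOSry array, the dimmest detected signal of that array or the signal of Gfra4, whichever is higher. Against this floor the XEZ2OSry mean was 1.50-fold higher. As detection did not always follow signal, that fold is no lower bound. Gfra4 met the detection filter only through the XEZ2OSry arrays, where it is high, so that its p-values after this filter are no support for a difference, including those without XEOSry replicate 4 (-0.81, adjusted p = 0.0461) and without XEZ2OSry replicate 4 (-0.84, adjusted p = 0.0393). Without the filter the adjusted p was 0.133.

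Inside the cell, RET signals through adaptors, RAS and MAP kinases, and PI3 kinase and AKT. Of 35 such genes listed, 31 were found and 19 tested, and 0 passed the adjusted threshold. At an unadjusted p under 0.05, 5 of the 19 were higher in XEOSry, where 12.9% of all genes tested were, and 1 was lower, where 12% were. The median difference was 0.10 beside 0.07 over all genes tested. Among the largest were Frs2, a docking protein for receptor kinases, at 0.36 (8.08 ± 0.0850 in XEOSry and 7.72 ± 0.141 in XEZ2OSry, adjusted p = 0.118), and Dusp6, a dual-specificity phosphatase, at 0.36 (adjusted p = 0.144). Nras, a RAS protein, ran the other way at -0.34 (adjusted p = 0.121). These kinases are used by most cells of the testis. Pdpk1, the kinase that activates AKT, had been listed under the name of Pdk1, a pyruvate dehydrogenase kinase, and was put in its place after values were seen; Pdk1 read 0.39 higher in XEOSry (adjusted p = 0.122).

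Etv5, an ETS family transcription factor that is induced by GDNF and also made by Sertoli cells, was detected on all 8 arrays. It read 7.29, 7.12, 6.99 and 7.40 in XEOSry and 7.15, 7.09, 6.93 and 7.07 in XEZ2OSry. The highest and the lowest XEOSry arrays enclosed nearly the whole XEZ2OSry range, and the means were 7.20 ± 0.184 in XEOSry and 7.06 ± 0.0928 in XEZ2OSry. The difference of 0.14 (SE 0.111, 95% confidence interval -0.11 to 0.39) had an adjusted p of 0.450 and an exact permutation p of 0.229. The interval holds differences of either sign. Bcl6b, a BTB zinc finger repressor that GDNF also induces, was not detected on any array (detection p 0.0251 to 0.358). It read 6.43, 6.27, 6.56 and 6.32 in XEOSry and 6.42, 6.37, 6.50 and 6.32 in XEZ2OSry, with means of 6.40 in both (exact permutation p = 1), and the sign of so small a difference turned with the array left out. Of the relatives of this pair, Etv1 (0.04, adjusted p = 0.751) and Bcl6 (0.04, adjusted p = 0.917) did not pass either, and Etv4 was not detected on any array.

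Id4, an inhibitor of DNA binding that pairs with basic helix-loop-helix factors and marks the stem cells among undifferentiated spermatogonia, was the member with the largest difference. It was detected on all 8 arrays and read 8.77, 8.16, 8.27 and 9.30 in XEOSry and 9.31, 9.38, 9.69 and 9.69 in XEZ2OSry. Every XEOSry array lay below every XEZ2OSry array, but XEOSry replicate 4 (9.30) came close to XEZ2OSry replicate 1 (9.31). The means were 8.62 ± 0.520 in XEOSry and 9.51 ± 0.200 in XEZ2OSry, a difference of -0.89 (SE 0.237, 95% confidence interval -1.42 to -0.35), or a 1.85-fold higher signal in XEZ2OSry. With an adjusted p of 0.117 it missed the threshold, and the exact permutation p of 0.0286 is the smallest that 4 against 4 arrays can give (2 of 70 assignments). Without XEOSry replicate 4 the difference was -1.11 and passed (adjusted p = 0.0419), while no other omission made it pass. That omission also raised the number of genes past the threshold from 5 to 396.

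Within XEOSry, though not within XEZ2OSry, the arrays stood in the same order for Id4 and for the spermatocyte markers. Of 15 pachytene markers 14 were found and 11 tested, and their mean signal was 10.71, 9.10, 9.42 and 11.11 in XEOSry and 11.79, 12.27, 11.89 and 10.98 in XEZ2OSry. XEOSry replicates 1 and 4 were thus the higher of their genotype in both measures, whereas in XEZ2OSry the array with the highest marker mean, replicate 2, was the second lowest in Id4, and that with the lowest, replicate 4, was the highest. All 11 markers had a negative difference (median -1.48), where 38% of all genes tested did. Of them 10 had an unadjusted p under 0.05, where 12% of all genes tested were lower, and 0 passed the adjusted threshold. Among them were Tdrd6, a component of the chromatoid body, at -3.73 (adjusted p = 0.0798), Adam3, a sperm surface protein, at -2.44 (adjusted p = 0.122) and Pgk2, the glycolytic kinase of meiotic cells, at -2.10 (adjusted p = 0.121). Sycp3, of the synaptonemal complex, was not detected on any array. The part of spermatocyte RNA in the Id4 difference was not tested.

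**Figure D2:**
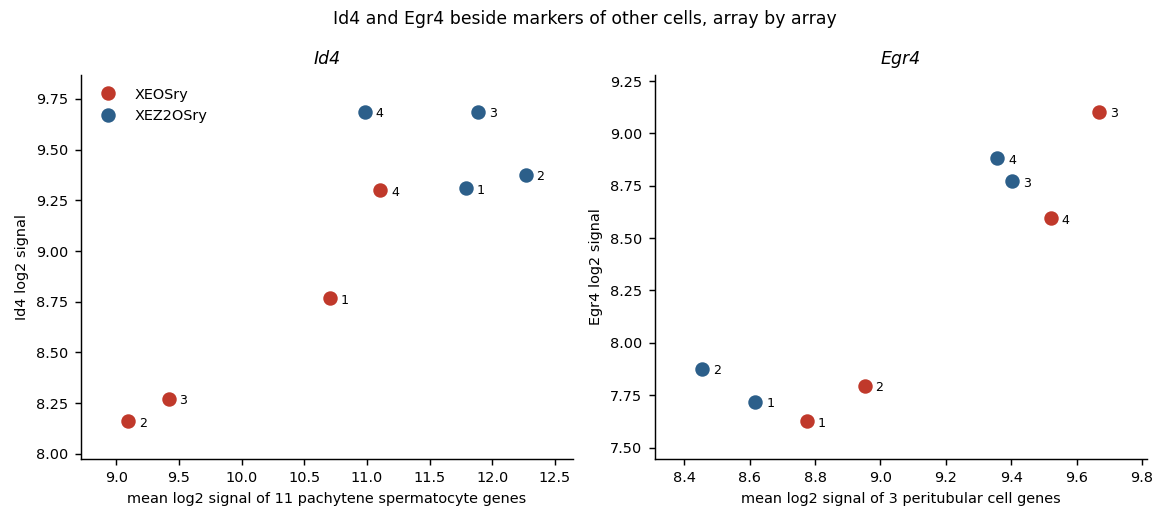
Each panel plots a member's log2 signal against the mean log2 signal of a marker list, 1 numbered point per array, XEOSry before XEZ2OSry in the legend. Id4 is low on XEOSry replicates 2 and 3, where the pachytene mean is also lowest (9.10 and 9.42), and Egr4 is high on replicates 3 and 4 of both genotypes, where the peritubular mean is also high.

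The other Id genes did not share the direction of Id4. Id1 was 7.96 ± 0.106 in XEOSry and 7.68 ± 0.413 in XEZ2OSry (difference 0.28, adjusted p = 0.366). Id2 differed by 0.18 (adjusted p = 0.576) and Id3 by 0.24 (adjusted p = 0.337). The differences of all 3 were positive under every alternative in which they were tested, and that of Id3 passed without XEZ2OSry replicate 4 (0.40, adjusted p = 0.0458). Of the E proteins that ID proteins bind, only Tcf4 was tested, at 0.21 (adjusted p = 0.412), and Tcf12 was not detected on any array.

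Nanos2 and Nanos3 encode zinc finger proteins that bind RNA and recruit the CCR4-NOT deadenylase, NANOS2 in the stem cell pool and NANOS3 in a wider set of undifferentiated spermatogonia. Nanos2 read 6.59, 6.63, 6.69 and 6.68 in XEOSry and 6.52, 6.35, 6.45 and 6.53 in XEZ2OSry. All XEOSry arrays lay above all XEZ2OSry arrays, yet only 1 of them passed as detected. Its detection p ran from 0.00877 to 0.0138 in XEOSry and from 0.0489 to 0.187 in XEZ2OSry. The means were 6.65 ± 0.0482 in XEOSry and 6.46 ± 0.0821 in XEZ2OSry, a difference of 0.18 (exact permutation p = 0.0286) between signals that were mostly not above background. Fitted without the detection filter it had a 95% confidence interval of 0.05 to 0.31 and an adjusted p of 0.190 over all 18097 genes. Nanos2 thus stood at the edge of detection with a small difference that missed the threshold.

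Nanos3 was detected on 3 XEOSry arrays and on 0 XEZ2OSry arrays. It read 6.72, 6.73, 6.95 and 6.49 in XEOSry and 6.54, 6.64, 6.56 and 6.57 in XEZ2OSry. XEOSry replicate 4 fell below all XEZ2OSry arrays, so that the genotypes overlapped. The difference of 0.14 had an exact permutation p of 0.171. Nanos1, their relative, was detected on all arrays at 0.21 (adjusted p = 0.273). Of 17 genes listed for translational repression with NANOS and for CCR4-NOT, 16 were found and 11 tested, with 0 past the adjusted threshold and a median difference of 0.03. Cnot10, a CCR4-NOT subunit, was the only one at an unadjusted p under 0.05, at 0.33 (9.51 ± 0.173 in XEOSry and 9.18 ± 0.0695 in XEZ2OSry, adjusted p = 0.128), with no overlap. Of all genes tested, 12.9% were higher at that unadjusted p and 6.34% were higher without overlap.

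Lin28, named Lin28a in current annotation, encodes an RNA binding protein that blocks the maturation of let-7 and is made by undifferentiated spermatogonia. It read 6.36, 6.61, 6.71 and 6.48 in XEOSry and 6.39, 6.33, 6.60 and 6.60 in XEZ2OSry. It was detected on 3 XEOSry and 2 XEZ2OSry arrays, and the ranges overlapped almost fully. The difference of 0.06 (SE 0.112, 95% confidence interval -0.19 to 0.31) had an adjusted p of 0.750 and an exact permutation p of 0.571.

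Of 12 genes listed for let-7 processing and its targets, 9 were found and 6 tested, with 0 past the adjusted threshold and a median difference of 0.05. Igf2bp3, an mRNA binding protein that let-7 represses, read 7.85, 8.05, 7.99 and 8.11 in XEOSry and 9.32, 9.56, 9.21 and 8.70 in XEZ2OSry. All XEOSry arrays lay below all XEZ2OSry arrays, 8.11 against 8.70 at the nearest, where 4.58% of the genes tested were lower without overlap. The difference of -1.20 (SE 0.169) was larger than that of any member, and its adjusted p of 0.0738 missed the threshold. It passed with variance moderation that follows signal and is robust (adjusted p = 0.0455), without XEOSry replicate 4 (-1.23, adjusted p = 0.0419) and without XEZ2OSry replicate 4 (-1.36, adjusted p = 0.00369). The mean of the pachytene markers was also lower in XEOSry than in XEZ2OSry (10.08 ± 0.976 and 11.73 ± 0.539), and its part in the Igf2bp3 difference was not tested.

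Sall4, a zinc finger factor that recruits the NuRD deacetylase and is needed for undifferentiated spermatogonia to differentiate, read 7.38, 7.73, 8.39 and 8.05 in XEOSry and 7.31, 7.08, 7.62 and 7.96 in XEZ2OSry. Replicates 3 and 4 were the higher pair in both genotypes, and the genotypes overlapped. Despite these signals it was detected on a single array, XEOSry replicate 3, with a detection p of 0.00735 against control beads, and this value reached 0.102 in XEOSry and 0.159 in XEZ2OSry. The means were 7.89 ± 0.433 in XEOSry and 7.49 ± 0.383 in XEZ2OSry, a difference of 0.40 with an exact permutation p of 0.200. In the fit without the filter the interval ran from -0.17 to 0.96 (adjusted p = 0.483).

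Of 14 genes listed as partners of SALL4, 8 were found and 7 tested, with 0 past the adjusted threshold and a median of 0.10. The NuRD subunits Mbd3 and Gatad2b had differences of opposite sign. Mbd3 was 8.69 ± 0.129 in XEOSry and 9.14 ± 0.127 in XEZ2OSry (-0.45, adjusted p = 0.112), without overlap, where 4.58% of the genes tested were lower. Mbd3 passed without replicate 4 of either genotype. Gatad2b was 7.08 ± 0.235 in XEOSry and 6.72 ± 0.121 in XEZ2OSry (0.36, adjusted p = 0.146). Sall1, a relative, was not detected on any array.

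Egr4, a zinc finger factor of the early growth response family, had nearly equal means in the 2 genotypes and a wide spread between animals. It was detected on all 8 arrays and read 7.62, 7.79, 9.10 and 8.60 in XEOSry and 7.72, 7.88, 8.77 and 8.88 in XEZ2OSry. Replicates 1 and 2 were low and replicates 3 and 4 high in each genotype. The means were 8.28 ± 0.694 in XEOSry and 8.31 ± 0.599 in XEZ2OSry, a difference of -0.03 (SE 0.378, 95% confidence interval -0.89 to 0.82) with an adjusted p of 0.962 and an exact permutation p of 0.914. The sign turned without XEOSry replicate 1 or 2 and without XEZ2OSry replicate 3 or 4, and the difference ran from -0.31 to 0.19 over the omissions of 1 array. Within a genotype, its SD of 0.648 was larger than that of 97.6% of the genes tested, where the median was 0.189. That of Id4 was 0.394 (larger than 90.9%), and those of Etv5 (0.146) and Lin28 (0.148) were below the median.

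The peritubular markers had a like pattern over the animals. Of 5 markers 3 were tested, and their mean signal was 8.78, 8.95, 9.67 and 9.52 in XEOSry and 8.62, 8.46, 9.40 and 9.36 in XEZ2OSry, so that replicates 3 and 4 were again the high ones on both sides. This order was not particular to them, as 3 of the 15 lists had it in both genotypes. The Sertoli markers read 10.91, 11.04, 11.45 and 11.07 in XEOSry and 10.65, 10.31, 10.91 and 11.36 in XEZ2OSry, and the third list was that of the SALL4 partners. Cnn1 and Tagln, also peritubular markers, were not detected on any array. The part of peritubular or Sertoli cell RNA in the values of Egr4 and Sall4 was not tested. Of the other EGR genes, Egr1 was 9.93 ± 0.510 in XEOSry and 9.63 ± 0.307 in XEZ2OSry (0.30, adjusted p = 0.473), Egr2 differed by 0.19 without overlap (adjusted p = 0.230) and Egr3 was not detected on any array. Of all genes tested, 6.34% were higher without overlap.

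**Figure D3:**
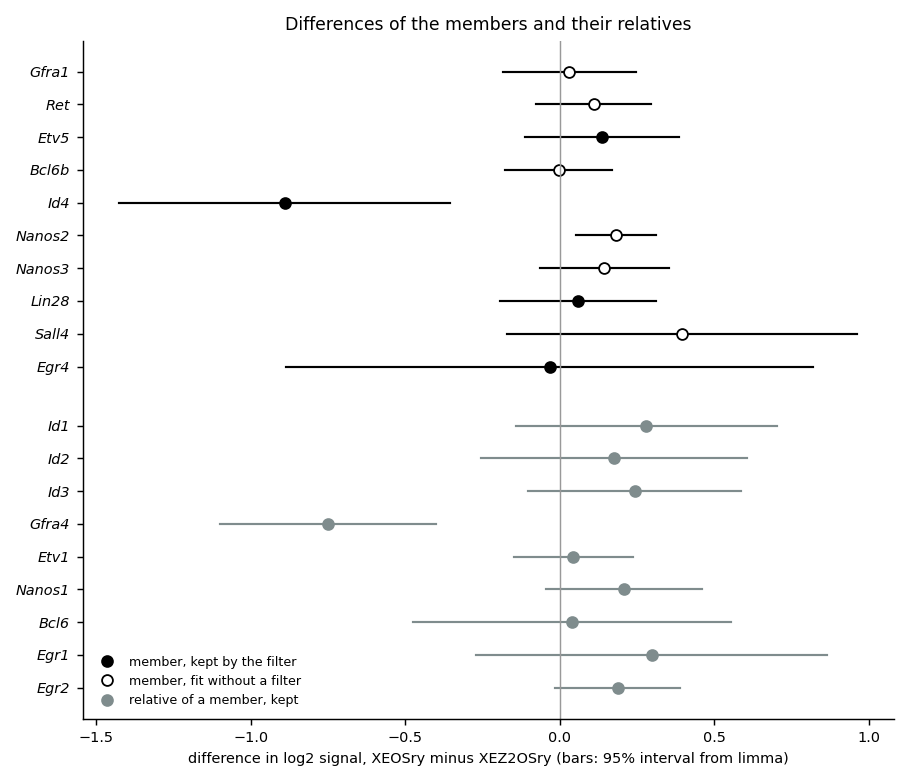
Difference in mean log2 signal, XEOSry minus XEZ2OSry, with its 95% confidence interval from limma, for the 4 tested members (filled black), the 6 others from the fit without the detection filter (open) and the tested relatives (grey). The intervals of Id4 (-0.89) and Nanos2 (0.18) exclude 0 although their adjusted p-values (0.117 and 0.190) missed the threshold, Gfra4 (-0.75) met the detection filter only through XEZ2OSry, where it is high, and the interval of Egr4 is the widest.

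Other genes of the undifferentiated state that could be tested did not pass either. Of 26 listed, 21 were found and 8 tested, with 0 past the threshold at an adjusted or an unadjusted p, 7 positive differences and a median of 0.17. Over all genes tested 62% of the differences were positive, with a median of 0.07. The brightest were Bmi1, a Polycomb component (-0.06, adjusted p = 0.708), and Ddit4, an inhibitor of mTORC1 (0.38, adjusted p = 0.359), which many cells express. Of the list, 6 genes, among them Pax7, Lhx1 and Eomes, were not detected on any array. Of 19 niche factors, 8 were tested, all with positive differences (median 0.10), again beside 62% and 0.07 over all genes tested. Only Inhba, an activin subunit, had an unadjusted p under 0.05 (0.28, adjusted p = 0.182), where 12.9% of all genes tested were higher.

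Spermatogonia that have left this state are marked by another list, of which 7 of 9 genes were found and 5 tested, with 0 past the threshold at an adjusted or an unadjusted p. Sohlh1, a factor of early differentiation, was 10.48 ± 0.334 in XEOSry and 10.04 ± 0.505 in XEZ2OSry (0.44, adjusted p = 0.305), and Dnmt3b, a DNA methyltransferase, differed by 0.20 (adjusted p = 0.558). The germ cell markers Dazl (0.06, adjusted p = 0.836) and Tex101 (0.01, adjusted p = 0.942) lay close together in the genotypes. Ddx4, not detected on any array, read 7.80 ± 0.166 in XEOSry and 8.25 ± 0.343 in XEZ2OSry, a difference of -0.46. Markers of the somatic cells had no gene past either threshold. Their median differences, beside 0.07 over all genes tested, were 0.23 for Sertoli cells (Aard and Cldn11 the brightest), -0.04 for Leydig cells (Cyp17a1 and Insl3), 0.29 for peritubular cells (Acta2 and Myh11) and 0.31 for macrophages (Cd68 and Lyz2).

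**Figure D4:**
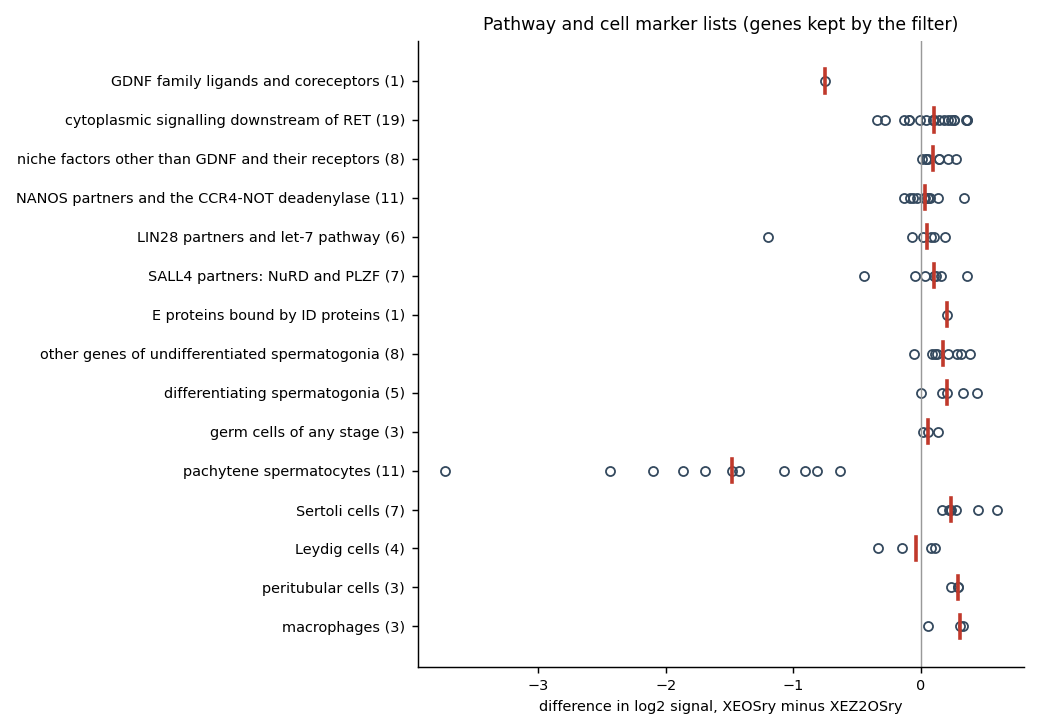
Difference in log2 signal, XEOSry minus XEZ2OSry, of every tested gene of each list (points; their number follows the list's name) with the list's median (red bar) and a line at 0. The pachytene markers lie wholly below 0 (median -1.48), whereas the lists of undifferentiated (0.17) and differentiating (0.20) spermatogonia scatter around small positive values, beside a median of 0.07 over all genes tested.

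The genes whose pattern over the 8 arrays was most like that of a member were ranked by Pearson's r, as a description over arrays of the same 2 genotypes. For Id4 they were Mum1 (r = 0.977), Cct7 (0.967) and Rnf6 (0.965), for Etv5 Lck (0.912), Slc35c2 (0.909) and Aasdh (0.901), for Lin28 Asl (0.979), 9030409G11Rik (0.977) and Kctd2 (0.970), and for Egr4 Creld1 (0.992), Sox18 (0.982) and 4933428G20Rik (0.981). Mum1 shared with Id4 the absence of overlap, at 12.37 ± 0.542 in XEOSry and 13.18 ± 0.131 in XEZ2OSry. Sox18, a factor of endothelial cells, shared with Egr4 the spread within genotypes, at 7.31 ± 0.557 in XEOSry and 7.26 ± 0.431 in XEZ2OSry. Both likenesses follow from the choice of these genes by r over the same arrays, out of all genes kept.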

How the data were processed

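Total RNA of whole testes was labelled and hybridized to single-colour Illumina mouse BeadChips, 1 array per animal. Log2 values, 1 per gene and array, were deposited by the authors after quantile normalization and were used as they stand. The methods name BeadStudio, and the submitters' processing notes name GenomeStudio 2011.1. A detection p-value was deposited beside each log2 value. The authors also deposited linear signal intensities, called non-normalized, which served in alternatives only. The number of arrays limits the precision.

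Genes with a detection p under 0.01 on at least 4 of 8 arrays were kept, whatever the genotype. Genotype was the single factor of a two-sided limma fit (version 3.58.1, lmFit, eBayes; R 4.3.3), with p-values adjusted by Benjamini-Hochberg over every gene kept and called at 0.05. Members outside the filter have values, detection p-values and two-sided exact permutation tests, unadjusted over 10 members (scipy 1.17.1, Python 3.11.15). The fit was tested on simulated data with errors drawn independently for each gene and array. Variation shared between genes was not part of that simulation. The labels give 4 animals per genotype and no batch. In the deposited values the names of the XEOSry arrays share a leading number that no XEZ2OSry name has. What it stands for is not said, and it cannot be told apart from genotype. XEOSry replicates 3 and 4 also share the number that follows it.

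The members and gene lists were chosen with earlier results of these data known. Named are all members, their tested relatives, and from each list every gene past the threshold, otherwise up to 3 with the largest difference at an unadjusted p under 0.05, otherwise the 2 with the highest mean signal, and for each tested member the 3 kept genes with the highest Pearson's r over the arrays. Nras, Ddx4, Gdnf, the relatives not detected on any array and other genes given only as not detected were named after their values were seen. 1 gene that this rule names is not reported here. Ret, Bcl6b and Sall4 promoters were not used here. Array names were matched to RefSeq by current symbol for 9 members and by synonym for Lin28. Alternatives changed the normalization, background correction (normexp, offset 50), detection filter, variance moderation, replicate block and the arrays included.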

Additional observations from a re-analysis of the deposited data

How the results depend on the processing

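The number of genes past the threshold was 5, and it was 1 among genes detected on all 8 arrays, 1 without variance moderation, 10 with intensity-trend and robust moderation, and between 3 and 519 when 1 array was left out (396 without XEOSry replicate 4 and 519 without XEZ2OSry replicate 4). The labels do not say whether the replicate numbers pair the animals, and the paper's methods call the controls matched. Deviations of same-numbered arrays correlated at 0.43, -0.23, 0.33 and -0.42, and those of differently numbered arrays at -0.72 to 0.75. These values cannot decide the pairing, as both kinds take either sign. With a replicate block 1 gene passed, and the SE of the Egr4 difference was 0.124 rather than 0.378. Members past the threshold numbered 0, and 0 to 1 with an array left out (Id4 without XEOSry replicate 4). Members at an unadjusted p under 0.05 numbered 1, and 2 without the detection filter, which adds Nanos2 to the genes tested. The difference of Id4 was negative under all 17 alternatives (-1.11 to -0.73, adjusted p 0.0419 to 0.301), and those of Etv5 (0.07 to 0.21) and Lin28 (0.00 to 0.12) stayed positive without passing. Of the other genes named, Mbd3, Tdrd6, Adam3 and Pgk2 passed only with an array left out: Mbd3 at adjusted p 0.0472 without XEOSry replicate 4 and 0.0458 without XEZ2OSry replicate 4, Tdrd6 at 0.0350 and 0.0346, and Adam3 (0.0483) and Pgk2 (0.0396) without XEZ2OSry replicate 4 only. Exact permutation tests of 3 against 4 arrays cannot pass, as their smallest p is 0.0571. The causes of these changes were not tested. Signal over background limits Gfra1, Ret, Nanos2, Nanos3 and Bcl6b, which were not detected on most arrays. Sall4 also failed detection on most arrays, though it read 7.08 to 8.39.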
